A study of Mus musculus with 13 samples.

Results

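Amino acid transporters were followed in sorted mouse regulatory T (Treg) cells and Treg “wannabes”, cells that transcribe a *Foxp3* null allele and make no Foxp3 protein. The set held 10 genes, *Slc7a5*, *Slc3a2*, *Slc7a8*, *Slc7a6*, *Slc43a2*, *Slc1a5*, *Slc38a1*, *Slc38a2*, *Slc7a1* and *Slc7a11*, chosen by name for their place in amino acid uptake and found by their symbols in both count tables, 10 of the 24417 genes listed. The study asked whether Treg cells can act in animals that already have severe inflammation, and its bulk RNA-seq part holds 13 libraries from 2 experiments, one with 8 libraries of male mice and one with 5 of female mice. All mice were C57BL/6, cells came from spleen and lymph node, and SMART-Seq v4, a method for small amounts of RNA, was used for amplification.

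In the male experiment every mouse received 4-hydroxytamoxifen (4-OHT) once on postnatal day 14, and cells were taken on day 21. The 3 control Treg libraries came from healthy Foxp3DTR-GFP/y Cd4creERT2 mice, in which *Foxp3* carries a diphtheria toxin receptor and GFP. The 3 rescued Treg libraries came from Foxp3LSL/y Cd4creERT2 mice, in which 4-OHT lets Cre remove a Thy1.1 reporter and STOP cassette from *Foxp3*, and the 2 Treg wannabe libraries from Foxp3LSL/y Cd4wt mice, which have no Cre and stay diseased. Cre was driven from *Cd4*, so other CD4-expressing cells recombine too, and the control and rescued cells differ in their *Foxp3* allele as well as in the health of their hosts. In the female experiment all mice carried Cd4wt and received diphtheria toxin 7, 5, 3 and 1 days before analysis, at 8 to 10 weeks of age when treated and 9 to 11 weeks by the age label. The 2 activated wannabe libraries came from Foxp3LSL/DTR mice, whose Foxp3-expressing Treg cells carry the toxin receptor and are killed, and the 3 resting wannabe libraries from Foxp3LSL/WT mice, whose Treg cells remain. Treg cells were sorted as Foxp3 reporter-positive and wannabes as Thy1.1-positive, reporter-negative CD4 T cells, and the study's general sorting protocol gates out CD8 and NK1.1 for both. Total counts lay between 25556783 and 36659638 per library.

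Transporters of the solute carrier family bring amino acids across the plasma membrane. T cells raise several of them when antigen receptor signals drive growth, and leucine, glutamine and arginine taken up in this way feed protein synthesis, nucleotide synthesis and the activation of mTORC1, the kinase complex that couples growth to nutrient supply. Treg cells also depend on amino acid uptake and mTORC1 for their suppressive function. Several of these transporters are known targets of the transcription factors Myc, ATF4 and NRF2 (encoded by *Nfe2l2*).

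Levels are given as CPM, counts scaled to a common library size with edgeR's TMM method within each experiment. The experiments were normalized apart, differ in sex, age and treatment, and are set side by side only. Changes are log2 fold changes with their SE (standard error), tested by quasi-likelihood in edgeR and adjusted by Benjamini-Hochberg over all genes tested, 14925 in the male and 13166 in the female experiment, and a gene was called at an adjusted p under 0.05. All 10 transporters passed the filter on low counts in both experiments. Comparisons with control Treg cells share the control libraries, and those of male wannabes share the wannabe libraries, so they are not independent of each other.

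The populations followed their labels. *Foxp3* lay between 865 and 1110 CPM in rescued Treg cells, between 167 and 252 CPM in control Treg cells, between 84.2 and 99.8 CPM in male wannabes and between 52.8 and 75.1 CPM in the female libraries. *Thy1*, whose Thy1.1 form the null allele encodes, lay at 196 and 327 CPM in male wannabes and between 176 and 222 CPM in the female wannabes, against 36.4 to 46.7 CPM in the Treg libraries. The 6 T cell markers were above 1 CPM in all 13 libraries, with sums between 4042 and 6166 CPM. Among markers of other cells, *Cd8b1* reached at most 27.7 CPM and the summed B cell markers 44.9 CPM. The summed plasma cell markers were 326 to 442 CPM in rescued and 174 to 215 CPM in control Treg cells, 117 and 184 CPM in male wannabes, 391 to 508 CPM in resting and 304 and 333 CPM in activated wannabes, with *Xbp1* or *Prdm1*, which T cells also express, the most abundant and *Mzb1* at 0 in most libraries. The rescued libraries were highest among male and the resting among female libraries, as for *Slc1a5*, control and wannabe libraries overlapped, and the part of plasma cells in its level was not tested. Of the 10 myeloid markers, *Cst3* made up most of the sum (62.3 to 138 CPM), and *Cd14*, *S100a8* and *S100a9* were all at 0 in most libraries.

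**Figure D1:**
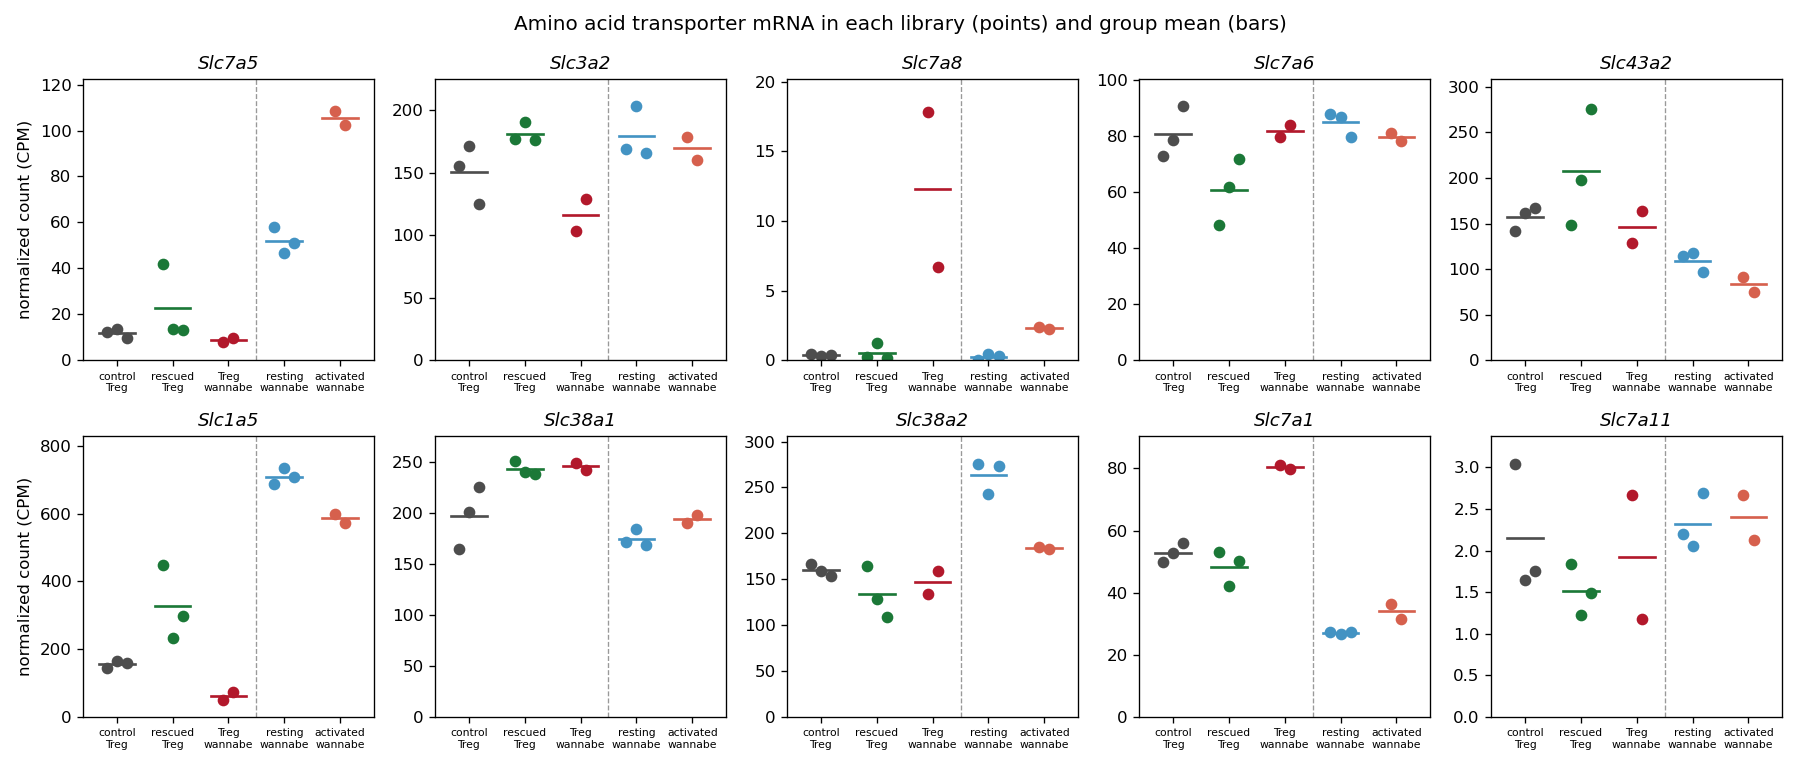
CPM (vertical axes, from 0) of the 10 transporters in each library (points) with the mean of each group (bars); the dashed line separates the male from the female experiment, which were normalized apart. *Slc7a8* reached 17.8 and 6.73 CPM in male wannabes, and *Slc1a5* lay at 50.01 and 74.3 CPM there against 144 to 450 CPM in the Treg libraries.

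Per kilobase of annotated exon (GENCODE M21, GRCm38), *Slc3a2* and *Slc1a5* were the most abundant transporters in control Treg cells, at 42.7 ± 6.73 and 37.5 ± 2.72 CPM per kb (SD, n = 3), and their libraries overlapped. *Slc38a2* (18.1 ± 0.763), *Slc7a6* (17.7 ± 1.98) and *Slc43a2* (15.6 ± 1.29 CPM per kb; SD, n = 3) came next, each overlapping its neighbour in this order, followed by *Slc38a1* at 11.4 ± 1.77. *Slc7a1* (4.58 ± 0.256) and *Slc7a5* (3.23 ± 0.543) were lower, and *Slc7a11* (0.154 ± 0.0559) and *Slc7a8* (0.0758 ± 0.0152 CPM per kb) were lowest. The order differed between populations. In rescued Treg cells *Slc1a5* led at 78.2 ± 26.7 CPM per kb, every library above every *Slc3a2* value (51.3 ± 2.21; SD, n = 3), whereas in male wannabes *Slc3a2* led at 32.9 ± 5.14 and *Slc1a5* stood at 14.9 ± 4.12 (SD, n = 2), close to *Slc38a2*, *Slc43a2* and *Slc38a1*. *Slc1a5* led in both female populations, at 170.0 ± 5.84 in resting (SD, n = 3) and 140.4 ± 4.48 CPM per kb in activated wannabes (SD, n = 2). *Slc7a5* stood at 14.0 ± 1.55 in resting and 28.4 ± 1.15 CPM per kb in activated wannabes, where only *Slc1a5* and *Slc3a2* were higher. These lengths join all annotated exons and need not be those that the cells use.

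Summed over the 10 genes, transporter mRNA amounted to 911, 1006 and 988 CPM in control Treg libraries, 1336, 1108 and 1232 CPM in rescued Treg libraries and 854 and 950 CPM in male wannabes. Each rescued library was above each control library, and the control and wannabe ranges overlapped. The female sums were 1591, 1645 and 1572 CPM in resting and 1475 and 1405 CPM in activated wannabes, which lay below them. *Slc1a5* was the largest single part of the sum in each female library and in rescued replicates 1 and 3, whereas *Slc38a1* (240.0 CPM) was above *Slc1a5* (233 CPM) in rescued replicate 2.

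Between rescued and control Treg cells 1 of the 10 transporters was called, *Slc1a5*, which was higher. Of all genes tested in this comparison 2.30% were called, 1.43% as higher and 0.864% as lower. The median log2 fold change of the 10 transporters was 0.29, with 6 above 0, against a median of −0.03 over all genes.
Between male wannabes and control Treg cells 2 were called, *Slc7a8* higher and *Slc1a5* lower, where 16.2% of all genes were called (6.27% higher and 9.92% lower). The median over the transporters was −0.11, beside −0.09 over all genes.
Between male wannabes and rescued Treg cells 4 were called, *Slc7a8* and *Slc7a1* higher and *Slc1a5* and *Slc3a2* lower, where 14.1% of all genes were called (4.06% higher and 10.0% lower). The median over the transporters was 0.07.
Between activated and resting wannabes 4 were called, *Slc7a5* and *Slc7a8* higher and *Slc1a5* and *Slc38a2* lower, where 22.5% of all genes were called (11.3% higher and 11.2% lower). Of these *Slc7a8* passed the filter on low counts only through the activated libraries, and its call was lost with all genes unfiltered and with the replicate number as a block. The median over the transporters was −0.01, as it was over all genes. The test of whether the change from control to rescued Treg cells differs from that from resting to activated wannabes called 1 transporter, *Slc1a5*, where 1.53% of the 15201 genes tested were called.
In bulk libraries a lower level in every cell and fewer cells with the transcript cannot be told apart.

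**Figure D2:**
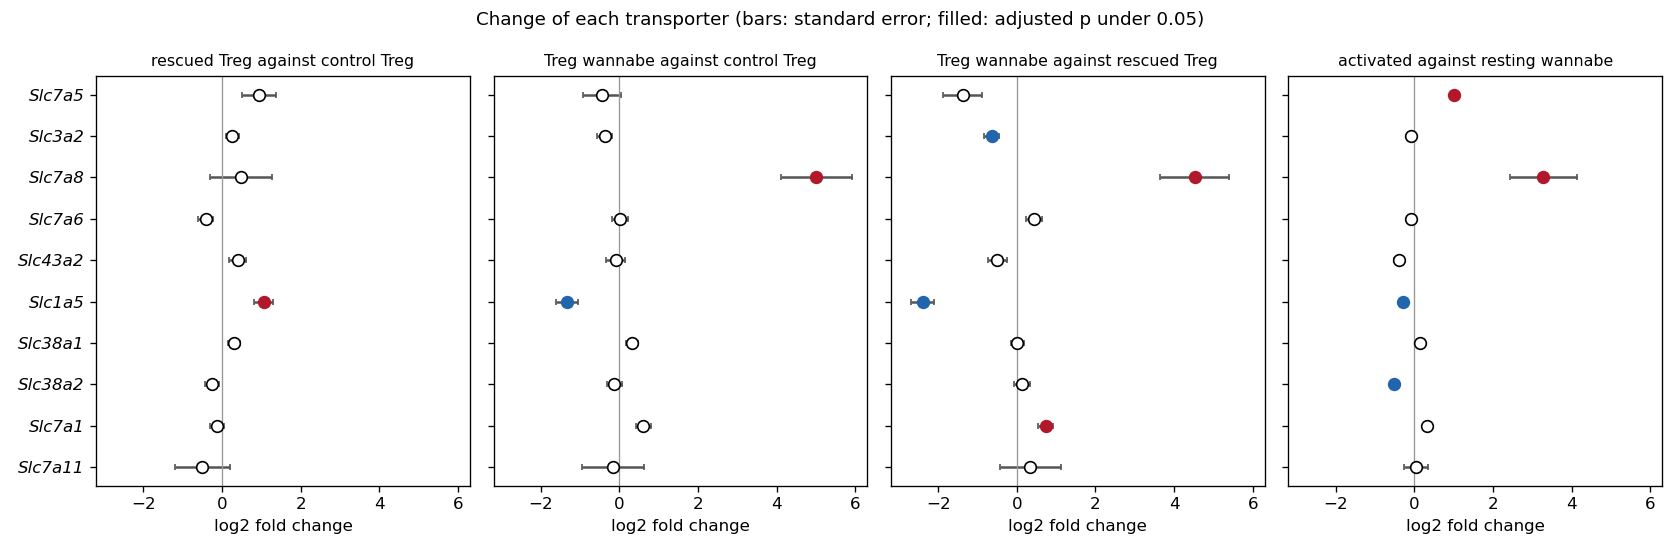
Log2 fold change of each transporter (horizontal axes) with its standard error (bars) in 4 comparisons; filled points were called at an adjusted p under 0.05, red as higher and blue as lower. *Slc7a8* had the largest changes, 5.01 and 4.52 in male wannabes and 3.28 in activated female wannabes, where it passed the filter only through the activated libraries, and *Slc1a5* was called in all 4 comparisons.

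*Slc7a5* encodes LAT1, the exchanger that brings leucine and other large neutral amino acids into activated lymphocytes, and lies on chromosome 8 of GRCm38 from 121881150 to 121907694. It was at 58.2, 46.8 and 51.1 CPM in resting and at 108 and 102 CPM in activated wannabes. Both activated libraries were well above all resting ones. The log2 fold change was 1.02 (SE 0.11, Benjamini-Hochberg adjusted p = 0.00196, edgeR quasi-likelihood), and the call held with any single library left out. In the male experiment *Slc7a5* was at 12.4, 13.7 and 9.78 CPM in control Treg cells, 42.0, 13.4 and 13.4 CPM in rescued Treg cells and 7.85 and 9.75 CPM in wannabes. Rescued replicate 1 stood apart, and the other rescued libraries lay within the control range. No comparison of the male populations was called for this gene by edgeR: rescued against control cells gave a log2 fold change of 0.94 (SE 0.43, Benjamini-Hochberg adjusted p = 0.318, edgeR quasi-likelihood) and was 0.16 without rescued replicate 1. From rescued Treg cells to wannabes it was −1.38 (SE 0.50, Benjamini-Hochberg adjusted p = 0.0970, edgeR quasi-likelihood). DESeq2 called the latter (log2 fold change −1.36, adjusted p = 0.0329, Benjamini-Hochberg). With one library left out edgeR gave −1.69 to −0.61, the smallest change without rescued replicate 1, and no call. Rescued replicate 1 also had the highest sum of the 10 proliferation genes among the Treg libraries, 2134 CPM against 1289 and 1390 CPM in the other rescued and 700 to 1309 CPM in the control libraries. Among the female libraries these sums were 789, 955 and 750 CPM in resting and 2212 and 2308 CPM in activated wannabes. Their groups differed in the same direction as *Slc7a5*, while within each group the library with the highest sum was not the one with the most *Slc7a5*. In male wannabes, where *Slc7a5* was lowest, they were 2851 and 1416 CPM. The part of cell division in these levels was not tested.

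*Slc3a2* encodes the CD98 heavy chain, which LAT1, LAT2 and y+LAT2 need to reach the cell surface, and lies on chromosome 19 from 8706882 to 8723369. It was at 155, 172 and 125 CPM in control, 177, 190.0 and 176 CPM in rescued Treg cells and 103 and 129 CPM in male wannabes. All rescued libraries lay above all others of the male experiment, and the control and wannabe ranges overlapped. The log2 fold change from rescued Treg cells to wannabes was −0.64 (SE 0.19, Benjamini-Hochberg adjusted p = 0.0424, edgeR quasi-likelihood). The call was lost with only the 2 populations fitted, while the fold lay between −0.722 and −0.61 over the alternatives that kept all libraries of both groups. This call was close to the threshold: with one male library left out it held only without control replicate 3, and the adjusted p lay between 0.0449 and 0.17, the highest value without wannabe replicate 1. The edgeR adjusted p was 0.0673 and 0.0527 without control replicates 1 and 2, 0.17 and 0.0504 without wannabe replicates 1 and 2, and 0.0807, 0.0959 and 0.0712 without rescued replicates 1, 2 and 3. In the female libraries *Slc3a2* lay between 160 and 203 CPM and did not follow *Slc7a5* (log2 fold change −0.08, Benjamini-Hochberg adjusted p = 0.652, edgeR quasi-likelihood).

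*Slc7a8* encodes LAT2, a second light chain of CD98 that exchanges neutral amino acids including small ones, and lies on chromosome 14 from 54722209 to 54781946. It was at 0.458, 0.306 and 0.374 CPM in control Treg cells, 0.202, 1.22 and 0.196 CPM in rescued Treg cells and 17.8 and 6.73 CPM in male wannabes. These values rest on 11 to 14, 7 to 31 and 622 and 205 counts. Both wannabe libraries were above every Treg library and differed widely from each other. The log2 fold change was 5.01 (SE 0.90, adjusted p = 0.00422) from control Treg cells and 4.52 (SE 0.88, adjusted p = 0.00601) from rescued Treg cells to wannabes, both from the quasi-likelihood test of edgeR, adjusted by Benjamini-Hochberg. The first call held with any single library left out, with the fold between 4.14 and 5.59. The second lay between 3.65 and 5.87 and was lost without wannabe replicate 1, which has the higher value (log2 fold change 3.65, adjusted p = 0.0767 by edgeR with Benjamini-Hochberg adjustment).
In the female experiment *Slc7a8* had 0, 12 and 8 counts in resting libraries, that is 0, 0.412 and 0.280 CPM, and 74 and 69 counts in activated ones, 2.36 and 2.22 CPM. A floor of 3 counts is 0.106 CPM in resting replicate 1, and the gene passed the filter only through the activated libraries, in which it is higher. Both activated libraries were above all resting ones at these low counts, and the log2 fold change was 3.28 (SE 0.85, Benjamini-Hochberg adjusted p = 0.0366, edgeR quasi-likelihood). That call was lost without resting replicate 3 (adjusted p = 0.064) or with a single activated library (0.183 without activated replicate 1 and 0.18 without activated replicate 2, all by edgeR with Benjamini-Hochberg adjustment), while the fold lay between 2.72 and 3.98. It was also lost with all genes unfiltered (adjusted p = 0.0525) and with the replicate number as a block (0.0649, both by edgeR with Benjamini-Hochberg adjustment). The difference between this change and that from control to rescued Treg cells was −2.79 on the log2 scale and was not called (adjusted p = 0.385, edgeR with Benjamini-Hochberg adjustment).
Markers of other cell types were read beside *Slc7a8*. The summed myeloid markers were 102 and 138 CPM in wannabes and 83.6 to 103 CPM in Treg libraries, with *Csf1r*, *Cd14*, *S100a8* and *S100a9* at 0 in both wannabe libraries. The summed B cell markers were 34.9 and 44.2 CPM, within the Treg range of 33.2 to 44.9 CPM. The summed erythroid markers were 12.9 and 3.41 CPM in wannabe replicates 1 and 2, against 2.02 to 8.18 CPM in Treg libraries. The summed NK cell markers were 5.50 and 9.13 CPM in wannabes, against 0.612 to 1.58 CPM in control and 3.69 to 8.81 CPM in rescued Treg libraries, with *Klrb1c*, which encodes NK1.1, the most abundant in wannabes. The wannabes were thus above the control libraries in these NK cell markers and overlapped the rescued ones, although the general sorting protocol leaves out NK1.1-positive and CD8-positive cells. In the female experiment the summed B cell markers were 12.3, 11.7 and 10.2 CPM in resting and 24.8 and 22.6 CPM in activated wannabes. The myeloid sums were 66.9 to 98.5 CPM in resting and 64.6 and 62.3 CPM in activated wannabes, and the T cell sums 5356 to 5829 and 4721 and 4897 CPM. None of these overlapped between the female groups. The part of such cells in the level of *Slc7a8*, or of other transporters called between activated and resting wannabes, was not tested.

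*Slc7a6*, the light chain y+LAT2 that exchanges arginine for neutral amino acids, was between 72.9 and 90.7 CPM in control and 48.2 to 71.7 CPM in rescued Treg cells and at 79.4 and 83.8 CPM in male wannabes. Each rescued library was below each library of the other male populations, but no comparison was called (log2 fold change from control −0.41, adjusted p = 0.309, edgeR with Benjamini-Hochberg adjustment). Female values lay between 78.2 and 87.7 CPM and overlapped. *Slc43a2* encodes LAT4, which carries branched-chain amino acids without a heavy chain. Its levels were 148, 197 and 276 CPM in rescued, 142 to 167 CPM in control Treg cells and 129 and 164 CPM in male wannabes, with rescued replicate 3 the highest. In the female experiment both activated libraries (91.5 and 75.4 CPM) were below the resting ones (96.5 to 117 CPM), and this was not called (log2 fold change −0.39, SE 0.13, adjusted p = 0.0714, edgeR with Benjamini-Hochberg adjustment). It was called without resting replicate 3 (log2 fold change −0.47, adjusted p = 0.0457, edgeR with Benjamini-Hochberg adjustment) and by DESeq2 (adjusted p = 0.039, Benjamini-Hochberg). The antisense gene *Gm45606* shares 922 exonic bases with *Slc43a2*, and whether strand was used in counting is not given in the sources used here, so reads of the 2 genes may not be told apart.

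*Slc1a5* encodes ASCT2, the exchanger that supplies much of the glutamine of growing T cells, and lies on chromosome 7 from 16781340 to 16798274. It was at 144, 166 and 160 CPM in control Treg cells, 450, 233 and 297 CPM in rescued Treg cells and 50.01 and 74.3 CPM in male wannabes. The 3 male populations did not overlap, with rescued cells highest and wannabes lowest, and rescued replicate 1 was again the highest library. Rescued exceeded control cells by a log2 fold change of 1.06 (SE 0.24, Benjamini-Hochberg adjusted p = 0.0421, edgeR quasi-likelihood). It was −1.33 (SE 0.27, adjusted p = 0.0082) from control Treg cells to wannabes and −2.39 (SE 0.29, adjusted p = 0.000441) from rescued Treg cells to wannabes again from edgeR, adjusted by Benjamini-Hochberg. Both calls against wannabes held with any single library left out. The call of rescued against control cells did not: the edgeR adjusted p was 0.182, 0.126 and 0.135 without control replicates 1, 2 and 3, 0.151 without rescued replicate 1 (log2 fold change 0.76) and 0.0752 without rescued replicate 3. It was also lost with the replicate number as a block (log2 fold change 1.05, adjusted p = 0.0545, edgeR with Benjamini-Hochberg adjustment).
In the female experiment *Slc1a5* was at 686, 735 and 707 CPM in resting and 599 and 573 CPM in activated wannabes. The activated libraries lay below the resting ones by a small margin, a log2 fold change of −0.28 (SE 0.07, Benjamini-Hochberg adjusted p = 0.0352, edgeR quasi-likelihood). The fold lay between −0.31 and −0.25 with one library left out, and the call held only without resting replicate 2. The edgeR adjusted p was 0.0535 and 0.0592 without resting replicates 1 and 3 and 0.142 and 0.202 without activated replicates 1 and 2. With the replicate number as a block the fold was −0.28 and not called (adjusted p = 0.0835, edgeR with Benjamini-Hochberg adjustment).
Wannabes had 50.01 and 74.3 CPM of *Slc1a5* in diseased male mice, the lowest of the male populations, and 573 CPM or more in the female mice. The experiments differ in sex, age, treatment and normalization, and the female one held no Treg libraries, so these levels are set side by side only.

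*Slc38a1* and *Slc38a2* encode SNAT1 and SNAT2, sodium-coupled carriers of glutamine, alanine and other small neutral amino acids, which lie on chromosome 15. *Slc38a1* was at 165, 201 and 225 CPM in control, 251, 240.0 and 238 CPM in rescued Treg cells and 249 and 243 CPM in male wannabes. The control libraries were below all others of the male experiment, and neither difference was called (log2 fold change 0.30 and adjusted p = 0.342 in rescued cells, 0.32 and 0.209 in wannabes, edgeR with Benjamini-Hochberg adjustment). The female values were 169 to 184 CPM in resting and 190.1 and 198 CPM in activated wannabes (adjusted p = 0.195, same edgeR test with Benjamini-Hochberg adjustment). *Slc38a2*, from 96687392 to 96699730, was at 276, 243 and 273 CPM in resting and 185 and 182 CPM in activated wannabes. The groups were apart, and the log2 fold change was −0.52 (SE 0.08, Benjamini-Hochberg adjusted p = 0.00821, edgeR quasi-likelihood). The call held with any resting library left out and was lost where a single activated library remained (adjusted p = 0.0841 and 0.0893 without activated replicates 1 and 2, edgeR with Benjamini-Hochberg adjustment), with the fold between −0.58 and −0.48. In the male experiment *Slc38a2* ranged from 109 to 167 CPM and the populations overlapped.

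*Slc7a1* encodes CAT1, the main carrier of arginine and lysine in many cells, and lies on chromosome 5 from 148327410 to 148399904. It was at 49.9, 52.6 and 55.8 CPM in control, 53.0, 42.1 and 50.1 CPM in rescued Treg cells and 81.2 and 79.8 CPM in male wannabes. Both wannabe libraries were above all Treg libraries, which overlapped each other. The log2 fold change was 0.73 (SE 0.19, adjusted p = 0.025) from rescued Treg cells and 0.61 (SE 0.19, adjusted p = 0.0504) from control Treg cells to wannabes, both from the quasi-likelihood test of edgeR, adjusted by Benjamini-Hochberg. These differences are of similar size on either side of the threshold. The first was not called without rescued replicate 2 (adjusted p = 0.123, edgeR with Benjamini-Hochberg adjustment) or without either wannabe replicate. With one library left out its log2 fold change lay between 0.594 and 0.804. It was also lost with only the 2 populations fitted, while the log2 fold change lay between 0.735 and 0.771 over the 6 alternatives that kept all libraries of both groups. The second was called in 3 of these 6 alternatives, among them DESeq2 (adjusted p = 0.00414, Benjamini-Hochberg). Female values of *Slc7a1* were at 27.3, 26.6 and 27.3 CPM in resting and 36.2 and 31.6 CPM in activated wannabes, higher in both activated libraries and not called (log2 fold change 0.32, adjusted p = 0.081, edgeR with Benjamini-Hochberg adjustment). *Slc7a11* encodes xCT, which imports cystine in exchange for glutamate for glutathione synthesis. It lay between 1.18 and 3.04 CPM in all 13 libraries, its groups overlapped in every comparison, and none was called (edgeR adjusted p between 0.822 and 0.922, Benjamini-Hochberg).

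Genes whose changes lay closest to those of each called transporter were taken from the 10240 genes whose normalized counts averaged more than 100 in each experiment, by Euclidean distance over 3 log2 fold changes (rescued against control, male wannabe against control, activated against resting), of which the first pair share controls. Nearest to *Slc1a5* were *Kbtbd7*, *Irf2bp1* and *Pde2a*, at distances of 0.0616, 0.107 and 0.183. Near *Slc7a5* lay *Map2k3* (0.102) and *Metrn* (0.225). No candidate came close to *Slc7a8*: its nearest, *Smtn*, *Trpm6* and *Lgals7*, lay at distances of 1.65 to 1.99. With at most 74 counts in any female library, *Slc7a8* itself lay below the minimum of 100. Genes with female counts as low as its own were thus not candidates, and the distances do not show that its pattern is rare. *Slc3a2* had *Alg10b*, *Arfip1* and *Dpp9* nearest (0.0467 to 0.0522), *Slc38a2* had *P2rx7*, *Rab5b* and *Kat8* (0.0334 to 0.0672), and *Slc7a1* had *Bex3*, *Mfsd3* and *Prpf31* (0.0482 to 0.0654).

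Promoter windows from 250 bases before to 50 after the transcript start, from RefSeq on GRCm38.p6, matched 7 of the 10 transporters, with 10 windows; there was no entry for *Slc7a5*, *Slc1a5* and *Slc38a1*. Windows were searched on both strands for CACGTG, the E-box bound by Myc, for TGATGNAA, the core of the amino acid response element bound by ATF4, and for TGACNNNGC, the core of the antioxidant response element bound by NRF2. CACGTG was in 0 of the 10 windows and in 7.15% of all 32851 promoter windows of this length. TGATGNAA was in 1 window, that of *Slc7a11*, and in 3.97% of all windows. TGACNNNGC was in 4 windows, of *Slc7a1*, *Slc7a6* and *Slc38a2*, and in 12.4% of all windows. The windows of *Slc7a6* overlap and hold the same site, so these are 3 sites in 3 genes. The window of *Slc7a8* and 1 of the 2 windows of *Slc7a1*, the transporters that rose in wannabes over rescued Treg cells, and that of *Slc7a11*, which stayed low throughout, are shown 5′ to 3′ with matches to these motifs in capitals; that of *Slc7a8* has none, and neither has the other window of *Slc7a1*, at chr5:148392766-148393065. They lie at chr14:54781837-54782136, chr5:148399855-148400154 and chr3:50443564-50443863, all on the minus strand.
Slc7a8: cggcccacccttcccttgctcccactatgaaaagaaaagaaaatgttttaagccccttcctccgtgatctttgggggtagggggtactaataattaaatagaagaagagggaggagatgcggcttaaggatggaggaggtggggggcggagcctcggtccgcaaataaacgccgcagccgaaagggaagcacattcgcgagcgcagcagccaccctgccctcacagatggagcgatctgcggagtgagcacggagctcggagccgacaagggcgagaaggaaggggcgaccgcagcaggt
Slc7a1: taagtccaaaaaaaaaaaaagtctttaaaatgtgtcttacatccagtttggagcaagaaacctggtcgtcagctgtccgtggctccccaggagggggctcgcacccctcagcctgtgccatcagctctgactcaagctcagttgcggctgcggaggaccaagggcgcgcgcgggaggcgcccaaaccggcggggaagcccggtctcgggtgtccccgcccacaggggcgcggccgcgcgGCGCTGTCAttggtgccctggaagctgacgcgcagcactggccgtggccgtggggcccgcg
Slc7a11: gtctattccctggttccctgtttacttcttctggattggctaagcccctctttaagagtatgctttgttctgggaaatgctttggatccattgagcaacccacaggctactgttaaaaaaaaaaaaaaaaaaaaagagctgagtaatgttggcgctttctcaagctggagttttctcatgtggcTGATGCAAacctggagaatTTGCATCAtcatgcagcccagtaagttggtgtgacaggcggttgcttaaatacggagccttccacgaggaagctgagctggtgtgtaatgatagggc
A match describes the sequence and says nothing of binding in these cells.

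Other genes were read from 10 lists with 191 genes in all, among them a list of proliferation genes and one of transcription factors, which do not themselves act on amino acids. Between rescued and control Treg cells 6 of the 166 list genes tested were called, 3 higher and 3 lower; between wannabes and control Treg cells 41 (25 higher, 16 lower), between wannabes and rescued Treg cells 33 (16 and 17), and between activated and resting wannabes 50 of 160 (34 and 16). These are 3.61%, 24.7%, 19.9% and 31.2% of the list genes tested, beside 2.30%, 16.2%, 14.1% and 22.5% of all genes. Proliferation genes make up 10 of the 34 called higher in activated wannabes and 5 of the 25 called higher in male wannabes against control Treg cells.

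**Figure D3:**
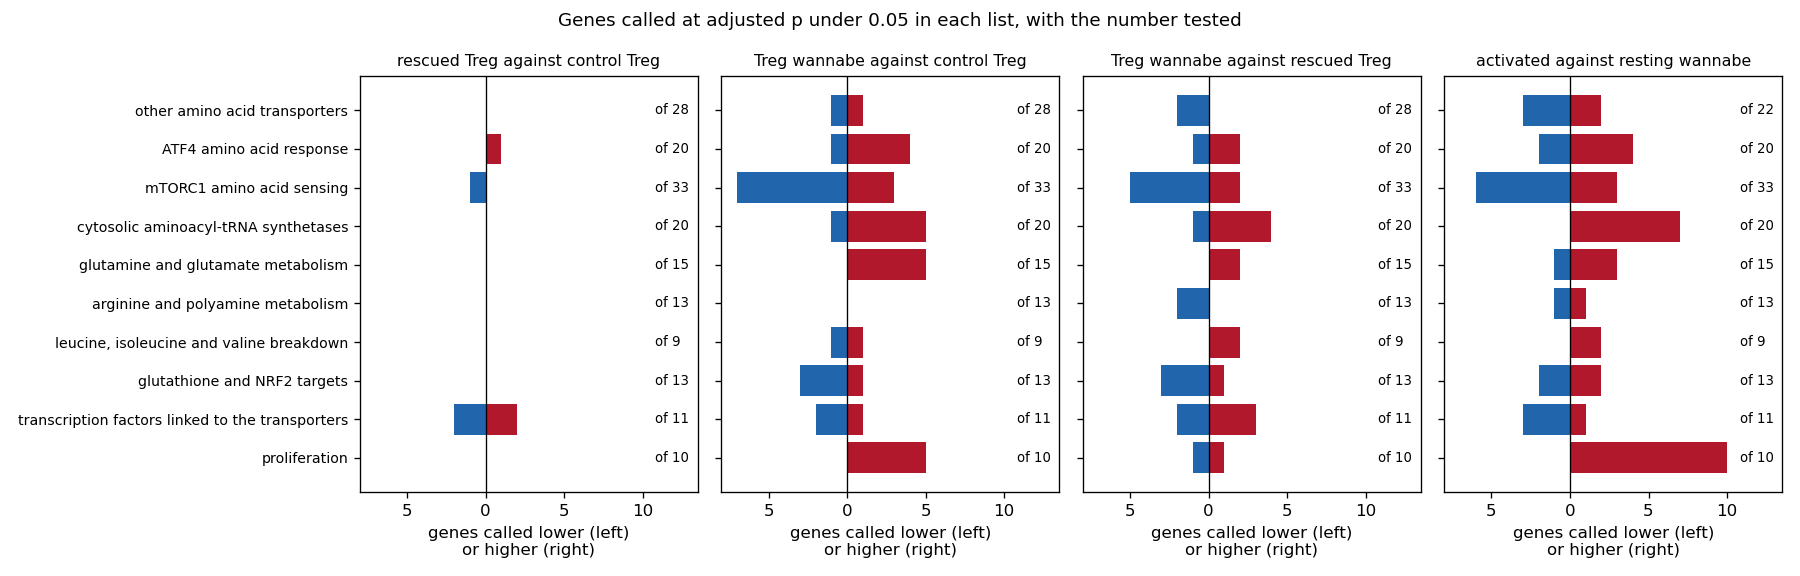
Number of genes in each list called at an adjusted p under 0.05 (horizontal axes, lower to the left in blue, higher to the right in red) in 4 comparisons, with the number tested at the right of each bar. All 10 proliferation genes were called higher in activated wannabes, where 11.3% of all genes were. In male wannabes against control Treg cells 7 of 33 genes of mTORC1 amino acid sensing were called lower and 3 higher. Of all genes 9.92% were called lower and 6.27% higher there. The median log2 fold change of that list was 0.11, with 20 of 33 above 0.

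Of 46 other amino acid transporters, 28 were tested in the male and 22 in the female experiment. In male wannabes *Slc6a6*, the taurine carrier, fell to 63.5 ± 5.54 (SD, n = 2) from 136 ± 13.9 CPM in control Treg cells (SD, n = 3), a log2 fold change of −1.10 (adjusted p = 0.00343, edgeR with Benjamini-Hochberg adjustment), and by 0.95 from rescued cells. *Slc38a10* rose from 216 ± 26.6 to 402 ± 39.9 CPM (log2 fold change 0.90, adjusted p = 0.00501, same edgeR test). *Slc43a1*, which encodes LAT3, a relative of LAT4, was lower in wannabes than in rescued Treg cells (13.6 ± 11.0 against 48.8 ± 9.34 CPM). In activated wannabes *Slc36a1*, *Slc16a10* and the lysosomal cystine exporter *Ctns* were called lower and *Slc7a10* and *Slc36a3* higher, all with means of at most 22.6 CPM. *Slc7a10* lay between 0 and 0.142 CPM in resting wannabes and passed the filter only through the activated libraries (0.933 and 1.81 CPM). The median log2 fold change of the list was −0.77 in male wannabes against control Treg cells (−0.09 over all genes), where 1 gene was called higher and 1 lower and some list genes lay near 0 CPM in wannabes. It was −0.24 in activated against resting wannabes (−0.01 over all genes).

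Of the 25 genes of the ATF4 amino acid response, 20 were tested in each experiment. *Stc2*, which encodes the secreted glycoprotein stanniocalcin 2, rose in rescued Treg cells (7.52 ± 3.04 against 1.79 ± 0.552 CPM; log2 fold change 2.06, adjusted p = 0.0231, edgeR with Benjamini-Hochberg adjustment) and further in male wannabes (22.3 ± 4.63 CPM). In wannabes against control Treg cells 4 rose, *Stc2*, the serine synthesis enzyme *Phgdh* (0.94), the mitochondrial enzyme *Shmt2* (0.85) and the alanine aminotransferase *Gpt2* (2.05), and *Cebpg* fell by 1.90 on the log2 scale. Of all genes 6.27% were called higher and 9.92% lower there. Against rescued Treg cells *Shmt2* and *Stc2* were higher and *Cebpg* lower, where 4.06% of all genes were called higher and 10.0% lower. In activated wannabes 4 rose and 2 fell: *Psat1* (1.44), *Gpt2* (2.80) and *Phgdh* (0.94) had the smallest p among those that rose, and *Atf4* itself fell from 92.5 ± 0.789 to 70.3 ± 4.89 CPM (log2 fold change −0.40, adjusted p = 0.0203, edgeR with Benjamini-Hochberg adjustment), as did *Ddit3*, which encodes CHOP. Of all genes 11.3% were called higher and 11.2% lower in activated wannabes. The change of *Psat1* differed between the experiments (−1.21, adjusted p = 0.0286, edgeR with Benjamini-Hochberg adjustment).

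All 33 genes of mTORC1 amino acid sensing were tested. *Sesn1*, whose product Sestrin 1 restrains mTORC1 through GATOR2, fell in all 4 comparisons: it had 361 ± 41.5 CPM in control and 169 ± 37.5 CPM in rescued Treg cells (SD, n = 3) and 32.5 ± 3.10 CPM in male wannabes (SD, n = 2), and 253 ± 25.2 CPM in resting (SD, n = 3) and 63.4 ± 3.30 CPM in activated wannabes (SD, n = 2). The log2 fold changes were −1.10 in rescued against control Treg cells, −3.48 and −2.38 in wannabes against control and rescued Treg cells, and −1.9995 in activated against resting wannabes. In male wannabes 3 genes rose and 7 fell against control Treg cells, where 6.27% of all genes were called higher and 9.92% lower. The median log2 fold change of the list was 0.11 in this comparison, with 20 of 33 above 0, beside −0.09 over all genes. *Rheb*, the GTPase that switches mTORC1 on, fell by 1.47 and *Rragc*, one of the Rag GTPases that bring it to the lysosome, by 1.67 on the log2 scale, while *Gatsl3*, which encodes the arginine sensor CASTOR1, rose by 1.06, *Tsc2* by 1.00 and *Sec13* by 0.52. Against rescued Treg cells 2 rose (*Tsc2* and *Mlst8*) and 5 fell, *Rragc* by 2.81 and *Rheb* by 1.69. Of all genes 4.06% were called higher and 10.0% lower there. In activated wannabes 3 rose, *Gatsl3* (1.01), *Nprl3* and *Fnip2*, and 6 fell, with the smallest p for *Sesn1*, *Flcn* and *Gatsl2*. Here 11.3% of all genes were called higher and 11.2% lower. *Fnip2* lay between 0.106 and 0.412 CPM in resting wannabes and passed the filter only through the activated libraries.

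Of the 20 cytosolic aminoacyl-tRNA synthetases, which load amino acids onto tRNA, 5 rose in male wannabes against control Treg cells, with the smallest p for *Aars* (1.04), *Wars* (0.71) and *Kars* (0.69), and *Gars* fell by 1.59. Against rescued Treg cells *Aars*, *Mars*, *Kars* and *Lars* rose by 0.53 to 0.72, and *Gars* fell by 2.47. In activated wannabes 7 rose, with the smallest p for *Vars* (0.81), *Kars* (0.52) and *Wars* (0.49). The median of the list was 0.32 in male wannabes against control Treg cells and 0.22 in activated against resting wannabes, beside −0.09 and −0.01 over all genes. Of all genes 6.27% were called higher and 9.92% lower in male wannabes against control Treg cells. Against rescued Treg cells these shares were 4.06% and 10.0%, and in activated wannabes 11.3% and 11.2%. The same shares apply to the lists below.
Of 15 genes of glutamine and glutamate metabolism, *Got2* (0.77), *Cad* (0.95), *Gpt2*, *Got1* (0.78) and *Pfas* (1.03) rose in male wannabes against control Treg cells, and *Pfas* and *Cad* against rescued Treg cells. In activated wannabes *Gpt2*, *Ctps* (0.69) and *Got2* (0.48) rose, and *Glul*, which encodes glutamine synthetase, fell by 0.46 on the log2 scale.
Of 14 genes of arginine and polyamine metabolism 13 were tested. *Odc1*, which encodes ornithine decarboxylase, fell in male wannabes against rescued Treg cells (4.88 ± 0.297 against 30.7 ± 29.4 CPM, with rescued libraries from 9.57 to 64.2 CPM, the highest being rescued replicate 1, which stands apart) and rose in activated wannabes (85.5 ± 6.33 against 34.8 ± 13.8 CPM; log2 fold change 1.30, adjusted p = 0.0259, edgeR with Benjamini-Hochberg adjustment). *Srm* fell in the first of these comparisons and *Sat1* in the second.
Of 9 genes of leucine, isoleucine and valine breakdown, *Bckdk* rose (0.73) and *Bckdhb* fell (−1.71) in male wannabes against control Treg cells, *Ivd* and *Bcat2* rose against rescued Treg cells, and *Bckdk* (0.73) and *Bcat1* (1.09), the cytosolic branched-chain aminotransferase, rose in activated wannabes.
Of 13 glutathione and NRF2 target genes, *Txnrd1* (−0.90), *Gsr* (−1.36) and *Keap1* (−0.93) fell and *Hmox1* rose (2.23) in male wannabes against control Treg cells. Against rescued Treg cells *Gsr*, *Txnrd1* and *Keap1* were lower and *Nfe2l2* higher. In activated wannabes *Txnrd1* (0.52) and *Gsr* (0.73) rose, and *Nfe2l2* (−0.49) and *Gpx1* (−0.92) fell.

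Among 12 transcription factors linked to the transporters, 11 were tested. *Myc* was at 274 ± 27.0 CPM in control, 177 ± 44.7 CPM in rescued Treg cells (SD, n = 3) and 304 ± 53.9 CPM in male wannabes (SD, n = 2); it was called higher in wannabes than in rescued cells (log2 fold change 0.78, adjusted p = 0.0312), and its lower level in rescued than in control cells was not called (−0.63, adjusted p = 0.126, both by edgeR with Benjamini-Hochberg adjustment). In female mice *Myc* was at 282 ± 50.1 CPM in resting and 319 ± 31.4 CPM in activated wannabes and was not called. *Atf4* was called in the female experiment only, as given above, with male means between 106 and 124 CPM, and the difference between experiments was not called (0.20, adjusted p = 0.731, edgeR with Benjamini-Hochberg adjustment). *Nfe2l2* rose in male wannabes over rescued Treg cells (0.95) and lower in activated than in resting wannabes (−0.49). *Epas1*, which encodes HIF-2α, rose in all 4 comparisons, from 0.598 ± 0.454 CPM in control to 35.6 ± 10.0 CPM in rescued Treg cells and 153 ± 31.6 CPM in male wannabes, and from 4.71 ± 2.93 CPM in resting to 96.4 ± 3.07 CPM in activated wannabes. *Hif1a* had the same order of group means as *Slc1a5* in the male experiment, as had other list genes, among them *Rragc*, *Gars*, *Gsr* and *Cebpg*. *Hif1a* was at 320.0 ± 28.7 CPM in control, 587 ± 23.3 CPM in rescued Treg cells and 80.2 ± 17.4 CPM in wannabes. Its log2 fold change was 0.88 in rescued Treg cells and −1.997 in wannabes against control. In the female experiment it did not follow *Slc1a5*, which was called lower. *Hif1a* was at 873 ± 72.4 CPM in resting and 889 ± 49.1 CPM in activated wannabes and was not called. *Bach2*, a repressor of effector genes, fell in rescued Treg cells (−2.08) and wannabes (−1.99) against control and in activated wannabes (−0.76). *Max* fell by 1.00 in rescued against control Treg cells, and *Mxd4* was lower in wannabes than in rescued Treg cells (−1.99). The change of *Bach2* (−1.31) and of *Hif1a* (0.86) differed between the experiments (adjusted p = 0.0152 and 0.0359, edgeR with Benjamini-Hochberg adjustment).

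All 10 proliferation genes were called higher in activated than in resting wannabes, with a median log2 fold change of 2.64, with the smallest p for *Top2a* (2.696), *Ccna2* (2.83) and *Birc5* (3.36). In male wannabes against control Treg cells 5 rose, *Mcm5* (1.30), *Cdk1* (2.25), *Birc5* (2.05), *Ccnb1* (2.11) and *Rrm2* (1.73), and against rescued Treg cells *Mcm5* rose and *Mcm6* fell. From control to rescued Treg cells the median was 1.03 with 10 of 10 above 0, and edgeR called 0 of these genes.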

How the data were processed

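The authors aligned reads with STAR 2.7.3a to GRCm38 and counted them per gene, by the study's methods and the submitters' processing notes; the deposited values are counts, whole numbers without normalization. The gene annotation and the strand setting are not given in the sources used here. Of the 24421 entries of a table, 4 have no gene name and were dropped (at most 0.00841% of a library's counts). Total counts per library were between 25556783 and 36659638; there are no molecular identifiers, so a floor of 3 counts covers counting error only.

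Groups came from the titles and genotypes. The series' design text gives 3 activated and 2 resting wannabe replicates, whereas the sample labels, the table columns and the methods give 2 and 3, which were used. The rescued Treg columns match no label by name and were assigned by the sort markers in the methods. Tests ran in R 4.3.3 with edgeR 4.0.16 (filterByExpr by group, TMM, quasi-likelihood F test, Benjamini-Hochberg adjustment over all genes tested, threshold 0.05). One model held the 8 male libraries, another the 5 female ones, and the last all 13 for the difference between experiments. The common BCV (biological coefficient of variation) came to 0.51 for male and 0.171 for female libraries. By the methods the female libraries come from 3 and 2 mice and the male ones are biological replicates; the sample labels do not name the animals, and p-values measure the spread between these samples. A p that misses the threshold does not show that there is no difference. Every replicate pair differed by more than sampling noise.

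Alternatives were DESeq2 1.42.0, edgeR with the size factors of DESeq2, all genes unfiltered, only genes whose normalized counts averaged over 100, only the 2 populations compared, the replicate number as a block and each library left out in turn. The tests were checked on simulated counts, but the outcome is not reported here and no result above rests on it. From each list at most 3 called genes with the smallest p in each direction were named, or all where 5 or fewer were called, besides *Myc*, *Atf4* and *Nfe2l2*. The transporters and lists were chosen with earlier results of these data known.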

Additional observations from a re-analysis of the deposited data

Results flagged for a closer look

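The change of *Slc1a5* differed between the experiments: rescued against control Treg cells gave a log2 fold change higher by 1.35 (SE 0.31, Benjamini-Hochberg adjusted p = 0.0488, edgeR quasi-likelihood) than that from resting to activated wannabes. All 3 rescued libraries were above all 3 control libraries, and both activated libraries were below all 3 resting ones. The test compares changes that also differ in cell population, sex, age and treatment, which cannot be told apart. With one of the 13 libraries left out the difference lay between 1.045 and 1.57, and the call held in 4 of the 13 fits, those without either male wannabe library, rescued replicate 1 or rescued replicate 2. The edgeR adjusted p was 0.0994, 0.057 and 0.0869 without control replicates 1, 2 and 3, 0.0583 without rescued replicate 3, 0.0901, 0.103 and 0.0805 without resting replicates 1, 2 and 3, and 0.195 and 0.24 without activated replicates 1 and 2. With the replicate number as a block the difference was 1.36 and not called (adjusted p = 0.0771, edgeR with Benjamini-Hochberg adjustment).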

How the results depend on the processing

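Of 693 recomputed log2 fold changes of single transporters, 628 kept their direction and side of the threshold, 41 lost the call, 6 gained it, and 18 turned sign, none of them called. With DESeq2, its size factors, no filter or a mean normalized count over 100, the number of transporters called stayed within 1.5 times that of the main test, while DESeq2 called more genes overall (1195 against 343 in rescued against control Treg cells and 3777 against 2958 in activated against resting wannabes). With only the 2 populations fitted, 2 transporters in place of 4 were called in male wannabes against rescued Treg cells. *Slc7a8* and *Slc1a5* were still called, and the calls of *Slc3a2* and *Slc7a1* were lost.

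With the replicate number as a block, 0 transporters in place of 1 were called in rescued against control Treg cells (edgeR; 2 at an unadjusted p under 0.05, and 1 by DESeq2 without the block), 2 in place of 4 in activated against resting wannabes (*Slc7a8*, adjusted p 0.0649, and *Slc1a5*, 0.0835, lost the call in edgeR with Benjamini-Hochberg adjustment), and 0 in place of 1 between the experiments (edgeR; 2 at an unadjusted p under 0.05, and 1 by DESeq2 without the block). *Slc43a2* in male wannabes against control Treg cells turned to 0.029 with the block. The numbers were not shown to pair the samples: same-numbered libraries of different groups had deviations correlated between −0.05 and 0.104.

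With one library left out the number called lay between 0 and 1 in rescued against control Treg cells, was 2 throughout in male wannabes against control Treg cells, and lay between 1 and 4 in wannabes against rescued Treg cells, between 1 and 4 in activated against resting wannabes and between 0 and 1 between the experiments. Where one library of a group remained, it was assumed to vary like the other groups. Uncalled changes that turned sign, with their range, were *Slc7a6* (−0.053 to 0.106), *Slc43a2* (−0.234 to 0.071) and *Slc7a11* (−0.852 to 0.359) in male wannabes against control; *Slc38a1* (−0.041 to 0.079), *Slc38a2* (−0.001 to 0.304) and *Slc7a11* (−0.356 to 0.853) against rescued Treg cells; *Slc7a8* (−0.901 to 0.887) in rescued against control; *Slc3a2* (−0.162 to 0.02) and *Slc7a11* (−0.129 to 0.196) in activated against resting wannabes; and *Slc7a5* (−0.849 to 0.225) between the experiments. The cause was not tested. *Slc7a8* and *Slc7a11* rest on few counts, which limits their precision.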
